A study of Mus musculus with 38 samples.

Results

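The lysyl oxidases and collagen hydroxylases described here are 10 genes, Lox, Loxl1, Loxl2, Loxl3, Loxl4, Plod1, Plod2, Plod3, P4ha1 and P4ha2, taken by name from tables of 55487 to 57126 genes. They were chosen by enzyme family and selected on their group levels in CPM, a gene's share of the counts of its library, in all 4 tables, the same values given below. Their levels and differences are therefore a description, and no p-value is given for any of them. Of the 10, all 10 passed the filter on low counts (3 CPM in at least 3 libraries) in the brain and tumour experiments. In the culture and miRNA experiments 7 passed it, and Lox, Loxl1 and Loxl2 did not.

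The series asked how exosomes of fat cells act on 4T1 cells, which derive from a mouse mammary adenocarcinoma and model triple negative breast cancer. In culture, 3 libraries were of untreated cells (control), and 3 each of cells treated for 72 h with exosomes from adipocytes that were either insulin sensitive (IS) or insulin resistant (IR). The adipocytes were differentiated from the mouse line 3T3-L1. A clonogenic assay on brain, in which cells of a tissue are grown as colonies, gave 5 libraries each labelled control, IS group and IR group, and primary tumours gave 4 labelled control and 5 labelled IR group. The labels describe all of these as 4T1 mammary adenocarcinoma cells, name the brain and tumour groups only as IS and IR, and give no mouse strain, age or sex. The miRNA experiment held 2 libraries titled scramble and 3 titled miR-145a-3p, again of 4T1 cells. In that experiment the library names go the other way from the titles, so a direction drawn from it holds only for the titles, and its groups are called here the libraries titled scramble and the libraries titled miR-145a-3p. The titles call the replicates biological but do not say whether each was a separate culture or animal, so the tests rest on the spread between libraries alone, which may in part be technical.

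A collagen chain is modified inside the cell before it is secreted. Prolyl 4-hydroxylase, made of an alpha subunit (P4ha1 or P4ha2 here) and the shared beta subunit P4hb, hydroxylates proline, which holds the triple helix together. The lysyl hydroxylases Plod1, Plod2 and Plod3 hydroxylate lysine, Plod2 mainly in the telopeptides at the ends of the chain, and Plod3 also carries the glycosyltransferase activity that adds sugars to hydroxylysine. These hydroxylases need oxygen, iron, 2-oxoglutarate and ascorbate. Outside the cell the copper enzymes Lox and Loxl1 to Loxl4 oxidise lysine and hydroxylysine of collagen and elastin to aldehydes that form cross-links. Tumours and their fibroblasts are known to express these enzymes, and the resulting cross-links stiffen the matrix.

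Totals ran from 8455412 counts in the smallest library, in culture, to 32637552 in the largest, in the miRNA experiment. The brain libraries are labelled as mammary adenocarcinoma cells, yet Epcam, the epithelial adhesion protein, was at 2.00 ± 0.983 CPM in brain control libraries (SD, n = 5) and at 179 ± 12.2 CPM in untreated cultured cells (n = 3). Of 10 epithelial markers 5 passed the filter in brain, with summed levels of 121 to 257 CPM over the 15 libraries, against 2900 to 3870 CPM in culture. So in these libraries the label and the epithelial markers disagree. In the tumour experiment IR 4 and IR 5 carried skeletal muscle markers at a summed 11710 and 1753 CPM, against 23.9 to 268 CPM in the other 7 tumours. Lymphocyte markers there summed to 8.57 to 386 CPM in control (median 12.5) and 4.82 to 459 CPM in IR tumours (median 11.1).

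The first comparison was of level across the 4 experiments, which were quantified in separate tables and are set side by side without a test. Levels of different genes are compared per kilobase (kb) of exon, from the GENCODE annotation of the GRCm38 build. In untreated 4T1 cells the lysyl oxidase messenger was mostly Loxl4, at 45.9 ± 1.40 CPM per kb (SD, n = 3), with Loxl3 at 6.99 ± 0.67. Lox had 0 counts in all 3 untreated libraries, which allows up to 0.0995 CPM, and 0 counts in the 3 IR exosome libraries, which allows up to 0.0926 CPM. These limits are 3 counts over the group and cover counting error only. A single Lox count appeared in the 3 IS exosome libraries. Loxl2 had 3 counts in untreated and 4 in IS exosome libraries and 0 in IR exosome libraries, which allows up to 0.0926 CPM. Loxl1 had 20, 26 and 24 counts in the untreated, IS and IR exosome libraries. In the miRNA experiment Lox again had 0 counts in every library, which allows up to 0.0598 CPM in those titled scramble and 0.035 CPM in those titled miR-145a-3p.

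The brain libraries showed another set of oxidases. Lox was at 190.5 ± 16.5, Loxl2 at 165.9 ± 15.6 and Loxl1 at 88.1 ± 7.64 CPM per kb in brain control libraries (SD, n = 5), and Loxl4 followed at 18.4 ± 6.42 and Loxl3 at 3.75 ± 0.76. Lox, Loxl2, P4ha1 and Loxl1 held the first 4 places there, and the intervals of 1 SD of Lox and Loxl2 overlapped, as did those of P4ha1 (94.2 ± 8.46) and Loxl1. Summed over the 5 oxidases the level was 432 to 521 CPM per kb in brain control libraries and 52.1 to 53.7 in untreated cultured cells. Tumour control libraries held all 5 oxidases, Loxl3 first at 30.2 ± 6.17 CPM per kb (n = 4), then Lox at 17.3 ± 3.03, Loxl1 at 14.3 ± 2.70 and Loxl2 at 13.3 ± 3.76, which did not differ beyond their SD, and Loxl4 last at 4.78 ± 1.03. In the bulk libraries of brain and tumour, fewer cells of a type and less RNA per cell cannot be told apart.

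The hydroxylases varied less between experiments than the oxidases did, though only slightly less than Loxl3 and Loxl4. Plod3 was the highest of the 3 lysyl hydroxylases in all 10 groups, with means of 42.0 to 69.4 CPM per kb. Over the 10 group means of log2(CPM + 1), Plod3 spanned 0.72 and Plod2 0.88, while Lox spanned 9.83 and Loxl2 9.81. Loxl1 spanned 7.76, but Loxl3 only 2.99 and Loxl4 3.3, against 2.65 for P4ha1 and 2.46 for P4ha2. Plod1 spanned 2.74, and its level was 4.62 ± 0.55 CPM per kb in untreated cultured cells and 28.0 ± 3.94 in tumour control libraries. P4ha1 was higher per kb than P4ha2 in all 10 groups, at 19.6 ± 0.44 against 4.18 ± 0.65 in untreated culture and 94.2 ± 8.46 against 18.4 ± 3.15 in brain control libraries.

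**Figure D1:**
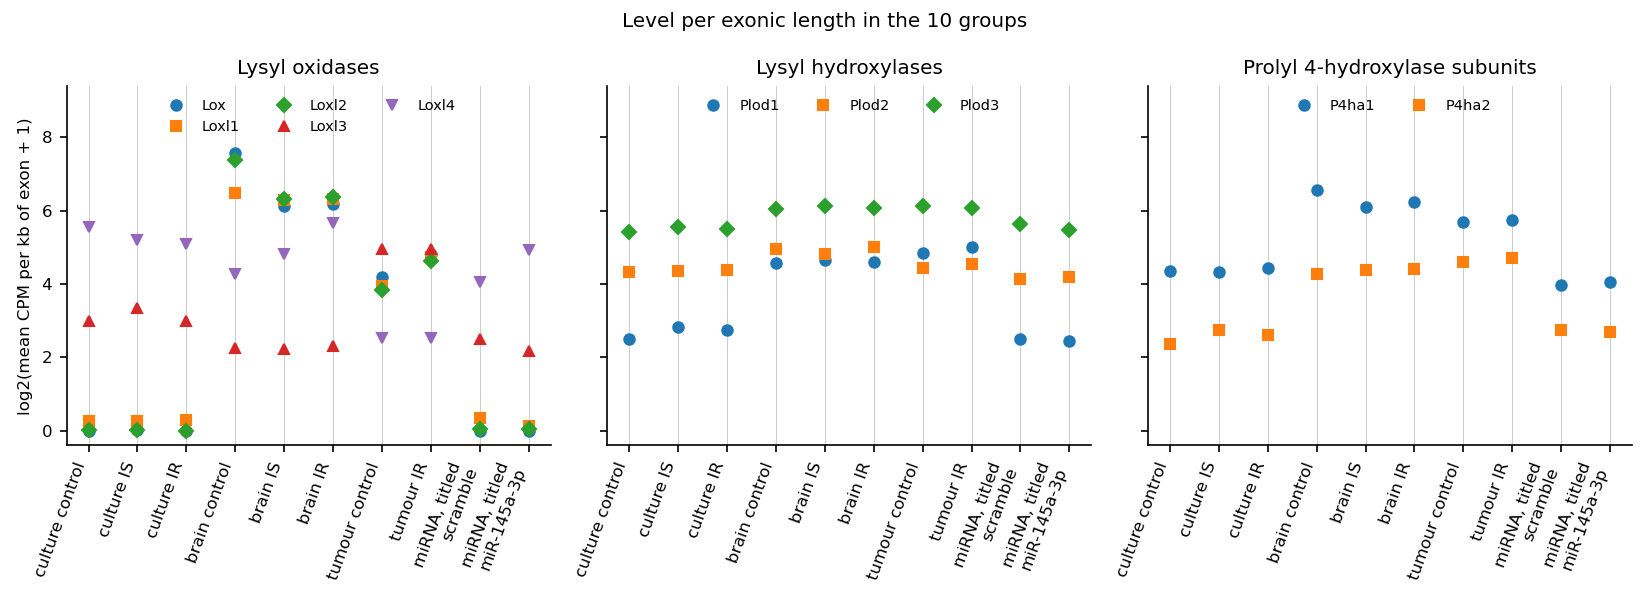
Level of each gene per kilobase of exon, as log2 of the group mean in CPM per kb plus 1 (vertical axis), in the 10 groups (horizontal axis), with 1 symbol per gene. Lox, Loxl1 and Loxl2 lie near 0 in the 5 cell culture groups and reach 88.1 to 190.5 CPM per kb in brain control, while Plod3 stays at 42.0 to 69.4 CPM per kb in all 10 groups.

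The promoters of P4ha1, P4ha2 and Loxl4 are printed because both prolyl hydroxylase genes are textbook targets of hypoxia and Loxl4 was the oxidase called in culture, brain and miRNA comparisons below. Each is the stretch from 250 bases before to 50 bases after the RefSeq start on GRCm38.p6, 5′ to 3′ on the strand of the gene. Capitals mark the core of the hypoxia response element, searched as ACGTG or GCGTG on both strands, each position counted on its own. P4ha1 lies at chr10:59323046-59323345 (plus strand), P4ha2 at chr11:54100674-54100973 (plus strand) and Loxl4 at chr19:42612757-42613056 (minus strand).
P4ha1: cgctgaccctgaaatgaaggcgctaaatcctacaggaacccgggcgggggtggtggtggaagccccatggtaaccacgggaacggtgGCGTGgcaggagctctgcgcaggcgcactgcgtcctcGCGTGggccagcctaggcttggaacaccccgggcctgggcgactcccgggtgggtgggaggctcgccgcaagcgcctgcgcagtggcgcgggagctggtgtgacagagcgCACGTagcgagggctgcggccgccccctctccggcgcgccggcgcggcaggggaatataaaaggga
P4ha2: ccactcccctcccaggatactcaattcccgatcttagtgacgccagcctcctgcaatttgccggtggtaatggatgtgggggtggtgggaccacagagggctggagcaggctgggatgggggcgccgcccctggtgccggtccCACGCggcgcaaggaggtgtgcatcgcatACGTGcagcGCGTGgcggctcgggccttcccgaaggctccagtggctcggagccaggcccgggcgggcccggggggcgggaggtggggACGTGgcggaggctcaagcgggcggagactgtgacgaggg
Loxl4: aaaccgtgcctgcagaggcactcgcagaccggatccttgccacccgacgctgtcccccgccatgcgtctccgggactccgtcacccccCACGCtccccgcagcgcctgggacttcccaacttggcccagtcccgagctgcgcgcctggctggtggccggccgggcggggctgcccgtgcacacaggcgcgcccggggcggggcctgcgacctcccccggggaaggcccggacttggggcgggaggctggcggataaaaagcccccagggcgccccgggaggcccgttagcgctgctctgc
P4ha1 held 3 matches, P4ha2 4 and Loxl4 1. Of 32851 promoters of this length, 43.8% held at least 1 match, 8.93% at least 3 and 3.86% at least 4. Promoters were kept for 5 of the 10 genes, with 1 chromosome left out of the search for these genes. The others kept were Plod3 with 4 matches and Plod1 with 2. A match is a description of these letters and not a bound site.

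IR exosomes were compared with no exosomes in cultured 4T1 cells to ask what these exosomes change in the tumour cell. Loxl4, which cross-links collagen, was lower. Its level was 166, 175 and 174 CPM in the untreated libraries and 118, 127 and 128 CPM with IR exosomes, 1.38-fold lower (log2 -0.47 ± 0.05, SE). All 3 treated libraries lay below all 3 untreated ones. Plod1, the lysyl hydroxylase of the helical part of the chain, was at 18.7, 14.8 and 16.6 CPM without and 20.9, 20.2 and 20.5 CPM with IR exosomes (log2 0.30 ± 0.10), and the groups did not overlap. P4ha1 was at 82.3, 78.7 and 80.6 against 84.4, 83.4 and 89.4 CPM (log2 0.09 ± 0.05), again without overlap but 1.06-fold apart. For Loxl3 (log2 0.00 ± 0.09), Plod2 (0.05 ± 0.07), Plod3 (0.07 ± 0.06) and P4ha2 (0.28 ± 0.14) the libraries of the groups overlapped. Of 7 genes tested 1 was called (0 higher, 1 lower) at an adjusted p of 0.05 in edgeR, where 13.6% of all genes were called (6.67% higher, 6.90% lower), and 3 did not overlap, where 30.2% of all genes did not. Since the genes were chosen with these levels known, nothing is read from such counts here or below. The median log2 of the 7 was 0.07, against 0.00 over all genes.

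IS exosomes were compared with the same untreated cells. Loxl3, an oxidase of collagen and fibronectin, was at 31.6, 26.1 and 28.3 CPM without and 33.8, 41.9 and 36.5 CPM with IS exosomes, 1.3-fold higher (log2 0.37 ± 0.09). Plod1 was at 20.0, 24.1 and 22.7 CPM with IS exosomes (log2 0.41 ± 0.10), and neither it nor Loxl3 overlapped with the untreated libraries. Loxl4 was lower, at 125, 138 and 142 CPM (log2 -0.35 ± 0.05), below every untreated library. P4ha2 was at 11.5, 8.70 and 9.13 CPM without and 14.5, 11.4 and 13.8 CPM with IS exosomes (log2 0.45 ± 0.14). Its lowest treated library lay just under the highest untreated one, and its call was lost with DESeq2 and without control 2, control 3, IS 1 or IS 3 (log2 0.38 to 0.42). Plod2 (0.02 ± 0.07), Plod3 (0.13 ± 0.06) and P4ha1 (-0.05 ± 0.05) overlapped. Of 7 tested, 3 were called higher and 1 lower, where 19.3% of all genes were called (9.97% higher, 9.32% lower), and 3 did not overlap, where 36.8% of all genes did not. Over the 7, the median log2 was 0.13, against 0.00 over all genes.

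Set directly against each other, the exosome groups differed most in Loxl3, which was at 33.8, 41.9 and 36.5 CPM with IS and 29.7, 29.0 and 27.1 CPM with IR exosomes (log2 -0.38 ± 0.09). Every IR library lay below every IS library. The call was lost without IS 2 (-0.30), IS 3 (-0.40) or IR 3 (-0.34). P4ha1 was at 77.7, 78.9 and 77.3 CPM with IS and 84.4, 83.4 and 89.4 CPM with IR exosomes, a difference of 1.1-fold (log2 0.14 ± 0.05) without overlap. Loxl4 overlapped between the exosome groups (log2 -0.12 ± 0.05), as did Plod1 (-0.11 ± 0.10), P4ha2 (-0.17 ± 0.13), Plod2 (0.03 ± 0.07) and Plod3 (-0.06 ± 0.06). Here 1 of 7 was called, lower, where 6.27% of all genes were called (2.82% higher, 3.45% lower), and 2 did not overlap, where 26.6% of all genes did not. Their median log2 was -0.11, against 0.00 over all genes. The IR and IS comparisons with untreated cells share their control libraries, so their values are given side by side only.

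Epithelial markers differed in these same libraries. The 10 markers summed to 3859 to 3870 CPM in untreated cells, 3386 to 3427 with IR and 2896 to 2976 with IS exosomes, without overlap, and 6 of 10 were called lower with IR and 7 of 10 with IS. Of 9 fibroblast markers 2 passed the filter, and Pdgfra, a growth factor receptor, was called higher with both (log2 0.82 with IR, 1.03 with IS). The other marker went the other way with both and was called with neither, and the median log2 was 0.364 with IR and 0.487 with IS. Lum, Dpt and Thy1 had no counts in any culture library. The summed level was 199.2 to 201.8, 193.8 to 206.4 and 203.3 to 212.8 CPM in untreated, IR and IS libraries. The part of these markers in the values of Loxl3, Loxl4, Plod1 and P4ha2 was not tested.

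**Figure D2:**
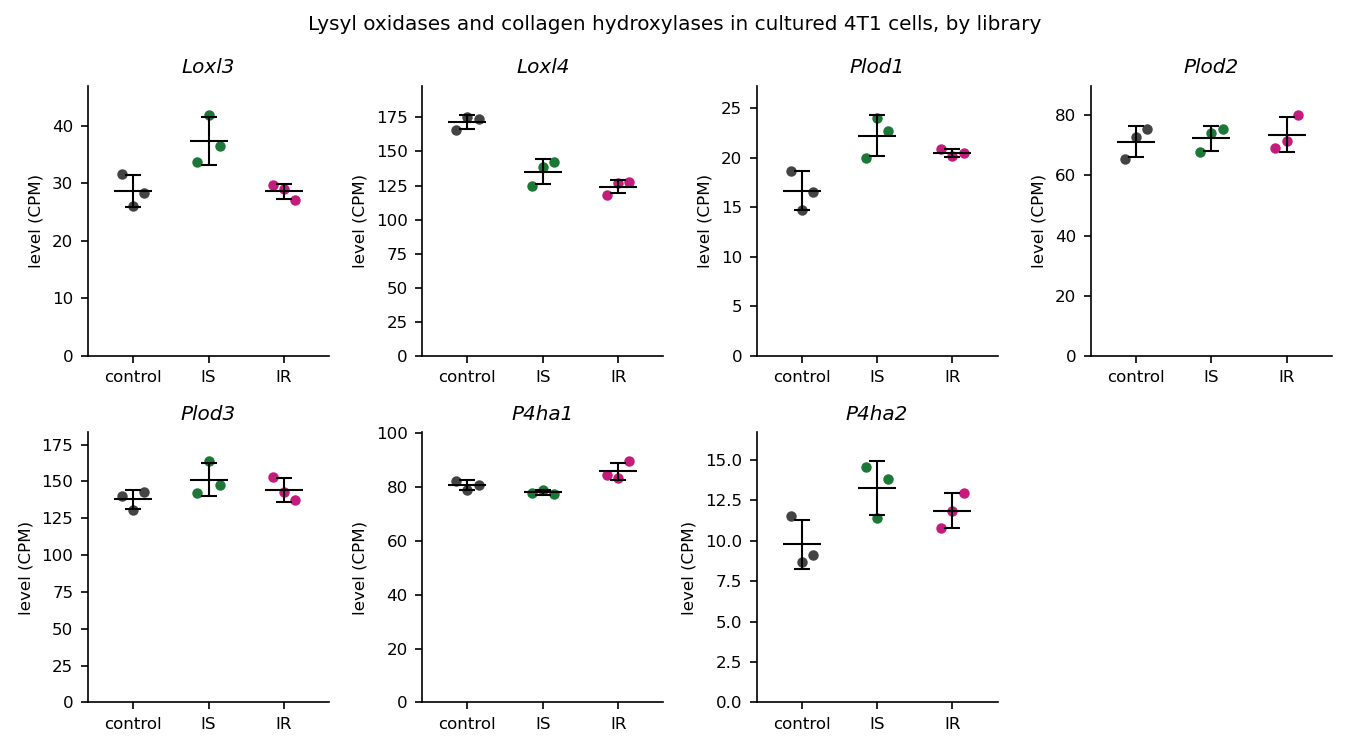
Level in CPM (vertical axis, from 0) of the 7 genes that passed the filter in cultured 4T1 cells, by group (horizontal axis, 3 libraries each). Points are libraries, horizontal lines means and bars SD, and Loxl4 lies at 166 to 175 CPM in control and 118 to 142 CPM in both exosome groups.

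Genes that act beside these enzymes in culture came from 9 lists of 109 genes, of which 69 passed the filter. These lists were chosen with earlier results of these data known, and the called genes named were picked by their adjusted p. Each adjusted p given for list genes here and below is therefore a description, not an independent test. With IR exosomes 12 of the 69 were called higher and 8 lower, where 6.67% of all genes were called higher and 6.90% lower. With IS exosomes 20 were called higher and 9 lower, where 9.97% and 9.32% of all genes were. The same shares stand beside the counts of each list below. P3h2, a prolyl 3-hydroxylase of collagen, was at 9.34 ± 1.08 CPM in untreated cells, 13.7 ± 1.26 with IR (log2 0.55 ± 0.12, adjusted p = 0.0055 by edgeR) and 15.9 ± 0.571 with IS exosomes (0.76 ± 0.12, adjusted p = 0.000271). In the list of collagen folding and modification, 2 of 13 rose and 0 fell with IR and 6 rose and 1 fell with IS exosomes, among them Sparc, a collagen chaperone (log2 0.24 with IS). The fibrillar collagen list had 1 gene past the filter, Col5a1, which rose with IS (0.57, adjusted p = 5.3e-06) and IR exosomes (0.21, adjusted p = 0.0289) by edgeR and was lower with IR than with IS (-0.36, adjusted p = 0.00213). Among basement membrane collagens Col4a1 rose with both (0.16 with IR, 0.26 with IS) and Col4a2 with IS exosomes (0.34). In the elastic fibre list, 2 of 6 rose and 1 fell with IR and 3 rose and 1 fell with IS exosomes. Ltbp2, a microfibril protein, rose from 149 ± 6.13 to 203 ± 9.15 CPM with IR and to 228 ± 1.18 with IS exosomes (log2 0.44 and 0.61), while Ltbp3, which holds latent TGF-beta, fell with IR (-0.23).

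Procollagen processing genes had 0 of 4 higher and 1 lower with IR exosomes, Pcolce, the enhancer of the C-propeptide protease (-0.26), and 0 called with IS. Of 6 copper supply genes the transporter Slc31a2 rose with IR exosomes (0.57, adjusted p = 0.0422 by edgeR). Of 6 ascorbate and iron supply genes 1 rose with IR (Slc11a2, an iron importer, 0.30) and 3 rose with IS exosomes, with the ferrireductase Steap3 first (0.46). The hypoxia response list had 3 of 20 higher and 3 lower with IR exosomes and 4 higher and 5 lower with IS. Bhlhe40, a repressor induced by hypoxia and other signals, was 2.05-fold lower with IR (log2 -1.03) and 2.08-fold lower with IS exosomes (-1.05), while Egln3, an oxygen sensing prolyl hydroxylase, rose with IR (0.36). In the TGF-beta response list 1 of 10 rose and 3 fell with IR exosomes, with Ccn2, a matricellular protein, at 105 ± 7.83 against 201 ± 9.46 CPM (log2 -0.94, adjusted p = 6.47e-09 by edgeR), and 1 rose and 2 fell with IS, Pmepa1 (-0.27) and Ccn2 (-0.28) being those that fell. Between IR and IS exosomes 2 of the 69 were called higher and 11 lower, among them Ccn2 (-0.66), Fbln2 (-0.27) and Steap3 (-0.48). Of all genes 2.82% were called higher and 3.45% lower there.

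In brain clonogenic libraries the IR group was compared with control. Lox, the founding member of the oxidase family, was at 912, 821, 1037, 881 and 899.9 CPM in control and 370.3, 372, 179.7, 437 and 363 CPM in IR libraries. Every IR library lay below every control library, and Lox was 2.64-fold lower (log2 -1.40 ± 0.17, SE). Loxl2, which cross-links collagen IV among others, was at 801, 819, 997, 953 and 914 CPM in control and 535, 388, 288, 539.6 and 459 CPM in IR libraries, 2.03-fold lower (-1.02 ± 0.15), again without overlap. Loxl1, the oxidase that serves elastin, was at 261 to 330.2 CPM in control and 194 to 293 CPM in IR libraries (-0.17 ± 0.10), and the groups overlapped. The oxidases thus split within 1 group of libraries, with Lox and Loxl2 lower and Loxl1 overlapping. Loxl3 was low in both, at 10.8 to 19.5 CPM in control and 14.2 to 18.7 CPM in IR libraries (0.09 ± 0.13).

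Loxl4 went the other way and was uneven. It was at 42.4, 101, 59.9, 54.5 and 85.4 CPM in control and 77.1, 227, 413, 68.9 and 138 CPM in IR libraries (log2 1.43 ± 0.40). The groups overlapped, and IR 2 and IR 3 stood highest. The call was lost without IR 3 (log2 0.90), IR 2 (1.34), control 1 (1.30), control 3 (1.38) or control 4 (1.36), and with the column number as a block (1.28). IR 3 was the brain IR library with the least Lox and Loxl2 and the most Loxl4. Without IR 3, Lox was lower by a log2 of -1.24 and Loxl2 by -0.90.

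Among the hydroxylases only P4ha1 was called in brain. It was at 334, 381, 410.0, 388 and 425 CPM in control and 298, 318, 283, 311 and 336 CPM in IR libraries (log2 -0.33 ± 0.07), and the highest IR library lay just above the lowest control. P4ha2 was at 34.1 to 52.4 CPM in control and 38.1 to 53.2 CPM in IR libraries (0.15 ± 0.11). Plod1 (0.03 ± 0.09), Plod2 (0.06 ± 0.10) and Plod3 (0.02 ± 0.06) overlapped, and Plod3 was at 204 to 220.0 CPM in control and 199 to 245 CPM in IR libraries. Of 10 tested, 1 was called higher and 3 lower, where 11.7% of all genes were called (6.45% higher, 5.27% lower), and 2 did not overlap, where 11.8% of all genes did not. The median log2 was 0.03, against 0.00 over all genes.

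The brain IS group was set against the same control libraries as the IR group, so the values of both are given side by side only. Lox was at 378, 306, 363, 279 and 325 CPM, 2.76-fold lower than control (log2 -1.46 ± 0.17), and Loxl2 at 428, 341, 475, 392 and 479 CPM, 2.12-fold lower (-1.08 ± 0.15). P4ha1 was at 288, 266, 274, 282 and 287 CPM (-0.47 ± 0.07). For these 3 genes every IS library lay below every control library. Loxl4 was at 87.3, 120.0, 67.1, 143 and 90.7 CPM (0.56 ± 0.40), overlapping with control. Loxl1 (-0.18 ± 0.10), Loxl3 (-0.04 ± 0.13), Plod1 (0.11 ± 0.09), Plod2 (-0.15 ± 0.10), Plod3 (0.07 ± 0.06) and P4ha2 (0.12 ± 0.11) overlapped too. Of 10 tested, 0 were called higher and 3 lower, where 6.46% of all genes were called (3.37% higher, 3.10% lower), and 3 did not overlap, where 7.81% of all genes did not. Their median log2 was -0.09, against 0.00 over all genes.

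Between the IR and IS groups in brain, Lox differed by a log2 of 0.06 ± 0.17 and Loxl2 by 0.06 ± 0.14. The 95% interval of the Lox fold ran from 0.833 to 1.31, so the values do not exclude a difference of that size. Loxl4 differed by 0.87 ± 0.40, Plod2 by 0.21 ± 0.10 and P4ha1 by 0.15 ± 0.07, and the libraries overlapped for all 10 genes, where 1.89% of all genes did not overlap. By edgeR 0 of 10 were called, where 0.0464% of all genes were called (0.0232% higher, 0.0232% lower). At an unadjusted p under 0.05 there were 3 of the 10 and 2344 of all 12924 genes, and by DESeq2 0 of the 10 and 604 of all genes were called. Over the 10, the median log2 was 0.06, against 0.01 over all genes.

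**Figure D3:**
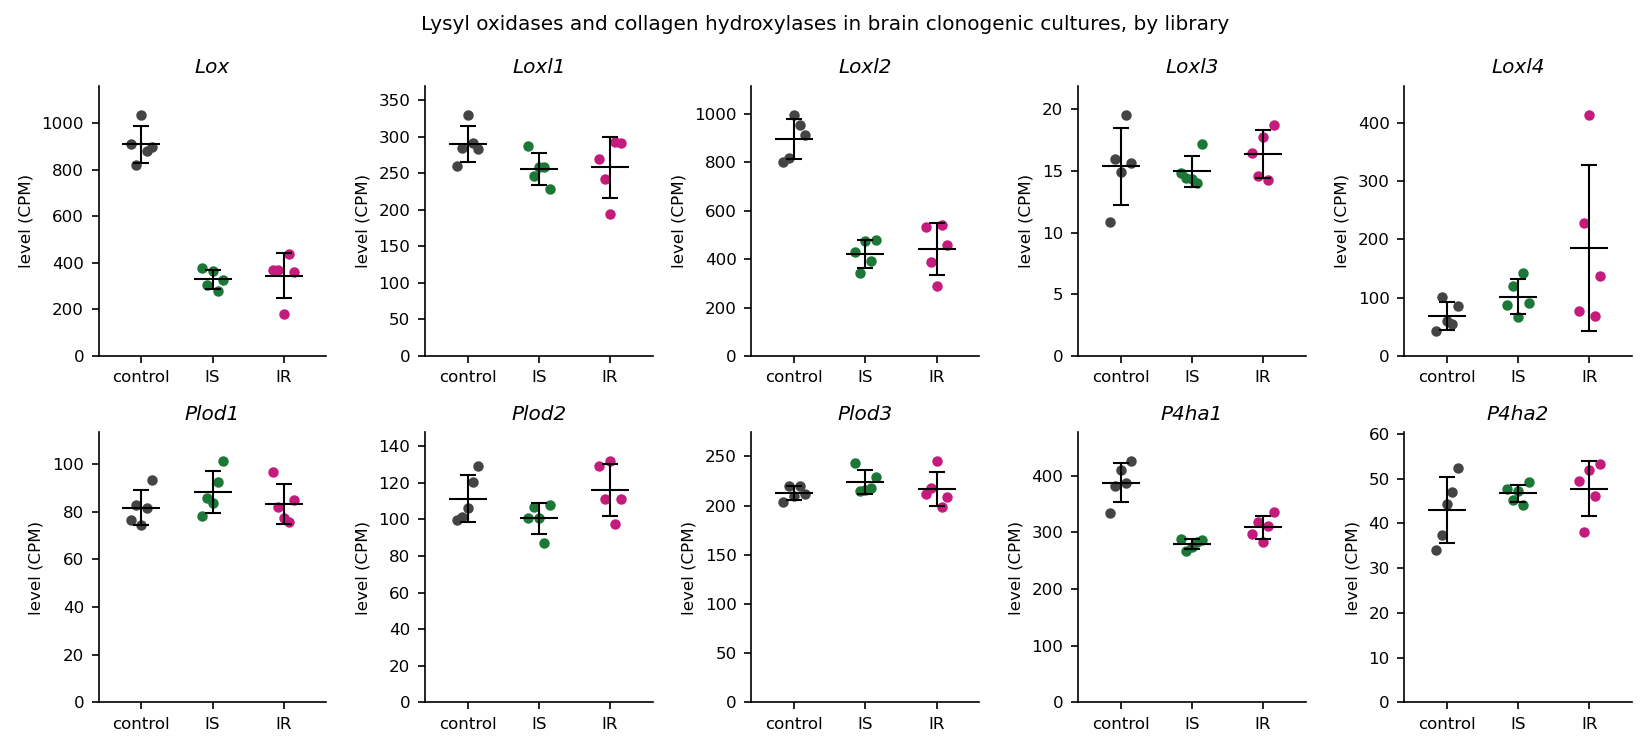
Level in CPM (vertical axis, from 0) of the 10 genes in brain clonogenic libraries, by group (horizontal axis, 5 libraries each). Points are libraries, horizontal lines means and bars SD. Lox lies at 821 to 1037 CPM in control and at 179.7 to 437 CPM in IS and IR, and Loxl4 reaches 413 CPM in 1 IR library.

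Cell type markers moved with these groups. The summed level of 9 endothelial markers was 137 to 206 CPM in brain control, 194 to 804 in IS and 484 to 1024 in IR libraries, and 8 of 9 were called higher in IR and 5 of 9 in IS. The summed level of the macrophage and microglia markers was 492 to 702 CPM in control, 228 to 991 in IS and 108 to 384 in IR libraries, with 6 of 7 tested markers lower in IR and 0 in IS, and was lowest in IR 3. Meningeal markers summed to 342 to 382 CPM in control, 409 to 518 in IS and 411 to 554 in IR libraries, both above all control libraries. Of the 6 tested 2 were called higher in IR and 1 in IS, with a median log2 of 0.119 and 0.0386. The summed fibroblast markers overlapped between groups, at 408 to 475, 310 to 479 and 355 to 475 CPM in control, IS and IR libraries, but of the 4 that passed the filter 1 was called lower in IR and 2 in IS. Thy1, a surface glycoprotein of fibroblasts, fell in both (log2 -1.64 in IR, -1.19 in IS) and Gsn, an actin severing protein, in IS (-0.36). Pericyte and smooth muscle markers summed to 872 to 1240, 568 to 1411 and 504 to 1031 CPM in control, IS and IR libraries, with 1 of 10 tested called higher in IR and 0 in IS. The part of these cell types in the levels of Lox, Loxl2, Loxl4 and P4ha1 was not tested.

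Of 99 neighbouring pathway genes tested in brain, 10 were called higher and 10 lower in IR and 6 higher and 8 lower in IS libraries. Of all genes 6.45% were called higher and 5.27% lower in IR, and 3.37% and 3.10% in IS. The same shares stand beside the counts of each list below. The count of 20 for IR dropped to between 9 and 13 without any 1 of control 1 to 5, IR 1, IR 3 or IR 5, and that of 14 for IS dropped to 9 without control 2. P4hb, the beta subunit that pairs with P4ha1 and P4ha2, fell from 533 ± 17.7 to 452 ± 26.6 CPM in IR libraries (log2 -0.24 ± 0.07, adjusted p = 0.0426 by edgeR). Creb3l1, a factor that drives collagen secretion genes, fell from 21.1 ± 1.94 to 14.6 ± 2.62 CPM in IR (-0.53, adjusted p = 0.0162) and to 11.9 ± 1.78 CPM in IS libraries (-0.83, adjusted p = 0.0016). These were the genes called of 19 in the collagen folding list, both of them in IR and Creb3l1 in IS.

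Among 10 fibrillar collagens 1 rose and 3 fell in IR, and 3 rose and 1 fell in IS libraries. Col5a2 fell in both, from 501 ± 73.7 to 246 ± 72.3 CPM in IR (log2 -1.03) and 304 ± 34.7 CPM in IS libraries (-0.72), and Col1a2 in IR (-0.78), whereas Col27a1 rose in both (0.95 and 0.94) and Col5a3 in IS (0.89). The basement membrane chains Col4a1 and Col4a2 rose in IR libraries (0.52 and 0.55), 2 of 5 tested. Of 14 elastic fibre genes 1 rose and 2 fell in IR and 1 rose and 3 fell in IS libraries. Fbn1, the main microfibril protein, fell from 89.9 ± 10.2 to 56.6 ± 14.7 CPM in IR (-0.67) and 48.2 ± 3.55 CPM in IS libraries (-0.90). Fbln1 rose in both (0.78 and 0.79), Ltbp2 fell in IR (-0.80) and Fbln2 in IS (-1.06). Procollagen processing had 0 of 6 called in either.

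Atp7b, a copper exporting ATPase, rose from 7.51 ± 1.07 to 14.1 ± 2.89 CPM in IR (log2 0.91, adjusted p = 0.00141 by edgeR) and 12.5 ± 1.31 CPM in IS libraries (0.73), the 1 of 7 copper supply genes called in each. In iron and ascorbate supply 0 of 6 rose and 1 fell in each, the transferrin receptor Tfrc in IR (-0.34) and the metal importer Slc39a14 in IS (-0.25). The hypoxia list had 4 of 21 higher and 0 lower in IR libraries, led by Egln3 (0.81), Ndrg1 (0.46) and the glucose transporter Slc2a1 (0.27), and 1 higher (Ndrg1, 0.56) and 1 lower (Bhlhe40, -0.25) in IS. Of the genes named above as textbook targets of this response, P4ha1 was called lower in IR and IS libraries and P4ha2 was called in neither. The part of this response in their values was not tested. The TGF-beta response list had 1 of 11 higher (Tgfbr2, 0.44) and 2 lower in IR, among them Tgfb3 (-0.67). Between IR and IS 0 of the 99 were called by edgeR, 25 at an unadjusted p under 0.05, and 8 by DESeq2.

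In primary tumours the IR group was compared with control. The 3 oxidases that lay near 0 in cultured cells had the largest differences of the 10 genes. Lox was at 67.8, 77.0, 102 and 83.1 CPM in control and 80.0, 108, 177, 154 and 132 CPM in IR tumours (log2 0.66 ± 0.22). Loxl1 was at 34.7, 46.6, 53.6 and 53.6 CPM in control and 47.1, 74.0, 76.5, 114 and 108 CPM in IR tumours (0.83 ± 0.25). Loxl2 was at 48.9, 63.8, 77.3 and 96.6 CPM in control and 87.3, 95.4, 185, 153 and 125 CPM in IR tumours (0.85 ± 0.26). In each, IR 3, 4 and 5 lay above all controls and IR 1 lay within the range of the controls. Between tumours of the same replicate number, the IR tumour was the higher in 4 of 4 cases for each of the 3 genes. These numbers were not shown to pair the tumours, and control 4 carries another number in its library name. That count leaves out IR 5 and has no share of all genes beside it, so nothing is read from it. Without IR 4 and IR 5, both rich in muscle RNA, the log2 differences were 0.56, 0.48 and 0.77.

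Loxl3 was at 103 to 159.8 CPM in control and 99.1 to 152 CPM in IR tumours (log2 -0.02 ± 0.17), and Loxl4 at 13.9 to 22.0 and 8.18 to 26.3 CPM (0.00 ± 0.32). Plod1 (0.16 ± 0.12), Plod2 (0.12 ± 0.13), Plod3 (-0.07 ± 0.11), P4ha1 (0.04 ± 0.21) and P4ha2 (0.12 ± 0.21) overlapped between the groups, and the highest P4ha1 library was IR 1, at 329 CPM. The libraries overlapped for all 10 genes, where 2.41% of all genes did not overlap. By edgeR 0 of 10 genes were called, 3 at an unadjusted p under 0.05, and 0 by DESeq2, where 0% of all genes were called by edgeR, 991 at an unadjusted p under 0.05, and 124 by DESeq2. On simulated data of this experiment 26.5% of genes changed 2-fold were called. Whether a difference of the size seen in Lox, Loxl1 and Loxl2 could be called for these 3 genes was not tested. The median log2 was 0.12, against 0.01 over all genes.

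**Figure D4:**
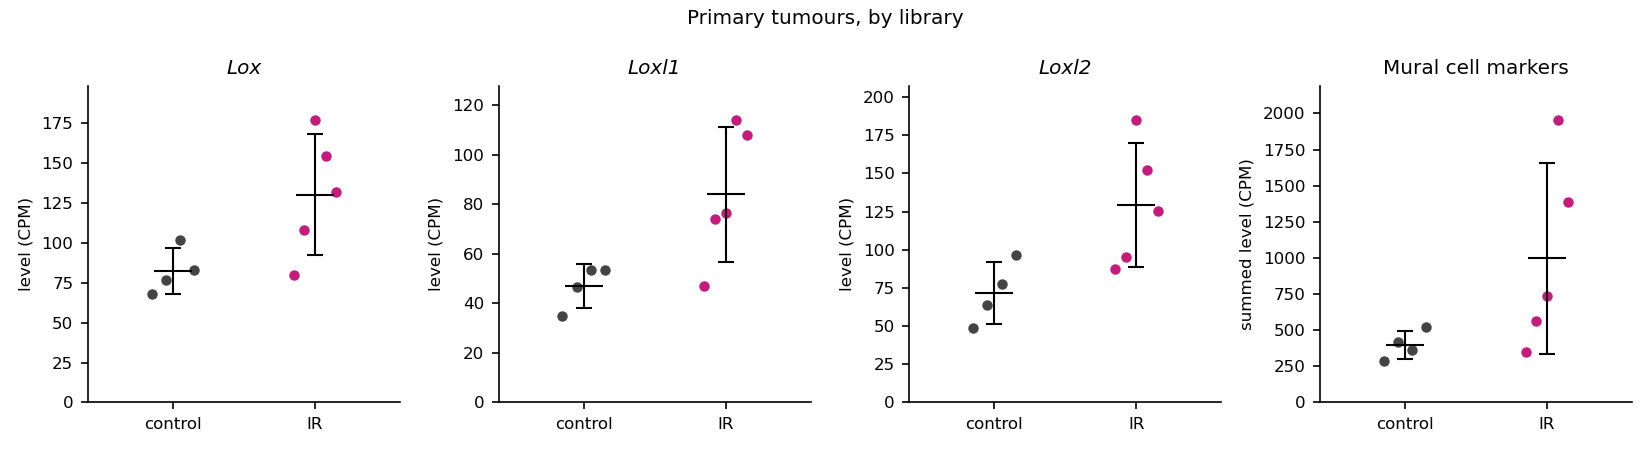
Level in CPM (vertical axes, from 0) of Lox, Loxl1 and Loxl2 and the summed level of 11 mural cell (pericyte and smooth muscle) markers in primary tumours, by group (4 control and 5 IR). Points are libraries, horizontal lines means and bars SD. The IR libraries spread from within the controls to 177, 114 and 185 CPM for the 3 genes, and to 1955 CPM for the markers. The marker sum was highest in IR 4 and IR 5, the tumours rich in skeletal muscle RNA.

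The pericyte and smooth muscle markers summed to 288 to 522 CPM in control tumours and to 347, 563, 739, 1955 and 1389 CPM in IR 1 to 5, and fibroblast markers to 902.8 to 1089 and 707.8 to 1295 CPM. The pericyte and smooth muscle sum was highest in IR 4 and IR 5, the tumours rich in skeletal muscle RNA. The part of muscle RNA in that sum was not tested. Epithelial markers summed to 3167 to 5059 CPM in control and 3648 to 7023 CPM in IR tumours. By edgeR 0 of these 10 markers were called and 5 were at an unadjusted p under 0.05, with a median log2 of 0.758, against 0.697 over the 11 pericyte and smooth muscle markers and 0.01 over the 9 fibroblast markers. The part of these markers in the levels of Lox, Loxl1 and Loxl2 was not tested. Of 96 neighbouring pathway genes 0 were called by edgeR, 30 at an unadjusted p under 0.05, and 7 by DESeq2. The collagen I chains Col1a1 (log2 1.02, adjusted p = 0.452 by edgeR) and Col1a2 (1.04, adjusted p = 0.436) had higher means in IR tumours, as did P4ha3, the third prolyl hydroxylase alpha subunit (0.98, adjusted p = 0.524), Fkbp10, a collagen chaperone (0.94, adjusted p = 0.579), and Fbn1 (1.02, adjusted p = 0.507). These 5 were named after their values were seen. The median log2 was 0.725 over 9 fibrillar collagens, 0.62 over 16 elastic fibre genes and 0.57 over 3 basement membrane collagens, against 0.01 over all genes. It was 0.25 in procollagen processing and in the TGF-beta response, 0.20 in collagen folding, 0.12 in the hypoxia response, 0.07 in ascorbate and iron supply and -0.01 in copper supply.

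The miRNA comparison asked what miR-145a-3p does in 4T1 cells, with the conflict between titles and library names given above. Loxl4 was at 71.0 and 45.2 CPM in the libraries titled scramble and at 106, 115 and 109.7 CPM in those titled miR-145a-3p, 1.89-fold higher (log2 0.92 ± 0.16). The groups did not overlap, and the pair titled scramble differed from each other by more than the 3 titled miR-145a-3p did. Loxl3 was at 16.9 and 21.4 CPM against 14.8, 14.0 and 14.6 CPM (-0.40 ± 0.12) and Plod3 at 155 and 166 against 142, 148 and 141 CPM (-0.16 ± 0.06), both without overlap. The Loxl3 call was lost with library totals alone (-0.27), with no filter on low counts (-0.27), with the replicate number as a block (-0.40), without the scramble-titled replicate 2 (-0.23), and without replicate 2 (-0.38) or 3 (-0.41) titled miR-145a-3p. The Plod3 call was lost with library totals alone (-0.04), with no filter (-0.03), with the block (-0.14), without the scramble-titled replicate 2 (-0.11) and without replicate 1 (-0.15), 2 (-0.18) or 3 (-0.14) titled miR-145a-3p.

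Plod1 (log2 -0.07 ± 0.10), Plod2 (0.05 ± 0.07), P4ha1 (0.08 ± 0.06) and P4ha2 (-0.05 ± 0.12) overlapped. Loxl1, under the filter, had 47 counts in the libraries titled scramble (1.05 and 0.796 CPM) and 29 in those titled miR-145a-3p (0.310, 0.296 and 0.423 CPM). Of 7 tested, 1 was called higher and 2 lower, where 56.7% of all genes were called (28.0% higher, 28.7% lower), and 3 did not overlap, where 73.0% of all genes did not. Their median log2 was -0.05, against -0.01 over all genes. Mitochondrially encoded genes took 8.59% to 12.5% of counts in the libraries titled scramble and 1.71% to 1.97% in those titled miR-145a-3p, and the part of this in the values above was not tested.

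Of 69 neighbouring genes 18 were called higher and 14 lower in the libraries titled miR-145a-3p, where 28.0% of all genes were called higher and 28.7% lower. The same shares stand beside the counts of each list below. In the copper list, 1 of 6 rose and 2 fell: Atp7a, the ATPase that loads copper onto secreted enzymes, was at 5.82 ± 0.878 against 2.25 ± 1.18 CPM (log2 1.35, adjusted p = 0.00586 by edgeR), Slc31a2 was lower (-1.02, adjusted p = 0.000497) and so was Cox17, a mitochondrial copper chaperone (-1.04). In collagen folding, 3 of 12 rose and 3 fell, with Sparc (0.31) and Mia3, needed to export procollagen (0.34), higher and P3h3 lower (-0.52). Both fibrillar collagens tested, Col27a1 (-1.39) and Col5a1 (-0.40), fell. Of 3 basement membrane chains 2 rose and 1 fell, Col4a5 (-0.47), and of 6 elastic fibre genes 1 rose, Ltbp4 (0.60). Bmp1, the procollagen C-proteinase, fell (-0.34), within 1 higher and 1 lower of 4. In ascorbate and iron supply 1 of 6 rose and 1 fell, Gsto1 (-0.51). The hypoxia list had 8 of 20 higher, with Egln3 (0.77), Mxi1 (0.75) and Ldha (0.55) first by adjusted p, and 2 lower, while P4ha1 and P4ha2 were not called. In the TGF-beta response 1 of 10 rose, Tgfbr2 (0.90), and 2 fell, among them Smad7 (-0.17).

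**Figure D5:**
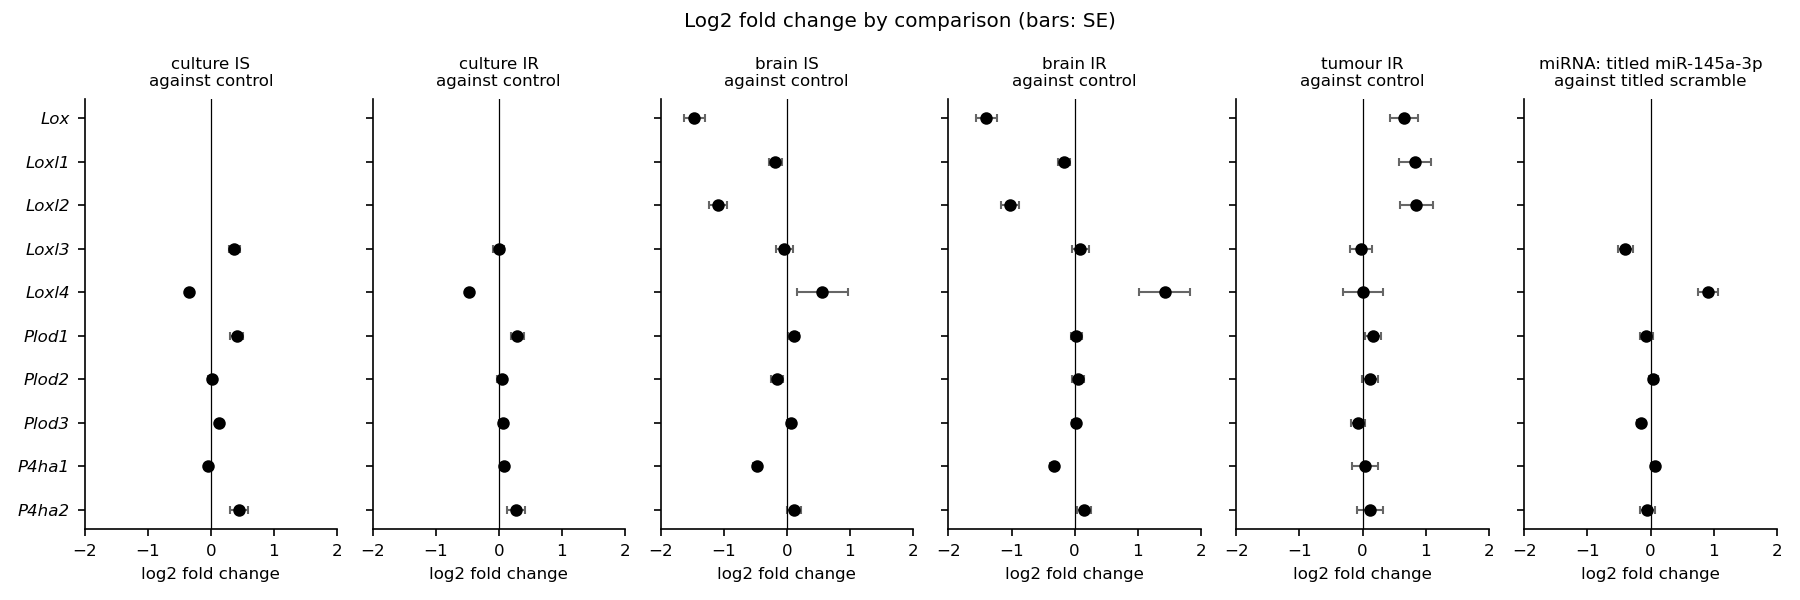
Log2 fold change (horizontal axes) of each gene (vertical axis) in 6 comparisons, with bars of 1 SE. Genes under the filter have no point. Lox and Loxl2 lie at -1.02 to -1.46 in both brain comparisons, and Loxl4 lies below 0 in both culture comparisons and above 0 in both brain comparisons.

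Genes whose pattern was most like each of the 10 were sought over the 10 groups, among 11598 genes, by the root mean square difference of log2(CPM + 1) after each gene's own mean was taken off. Groups share a table within an experiment, so the points are not independent and no test is given. Lox and Loxl2 were each other's nearest gene (0.18), and the next for both was Xist, at 0.36 from Lox and 0.33 from Loxl2. Loxl1 lay nearest to Epas1 (0.23) and Dhrs3 (0.27), Loxl3 to Slfn8 (0.30) and Bcl3 (0.31), and Loxl4 to Hsph1 (0.37) and Slc35g1 (0.38). Among the hydroxylases Plod1 lay nearest to Bckdha (0.15) and Sulf2 (0.17), Plod2 to Rab22a (0.03) and Mef2d (0.06), Plod3 to Ric8a (0.07) and Psmd10 (0.07), P4ha1 to Ift122 (0.13) and Hdhd3 (0.15), and P4ha2 to Ccdc28a (0.14) and Vegfa (0.15). Genes with a narrow range, such as Plod2, have many near neighbours by this measure.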

How the data were processed

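RNA was sequenced from 38 libraries in 4 experiments, grouped by sample title. The deposited values are expected counts per gene, made by the authors with RSEM (culture and brain) and salmon (tumour and miRNA), per the file headers and names. The labels' protocols give a stranded kit, and the series text names an nf-core pipeline with DESeq2. Tools in the submitters' processing notes are Trimmomatic, STAR, featureCounts and DESeq2, with builds GRCm38 and GRCm39; the build of a given table is not stated in those sources. Another 3 culture columns fit no sample and were set aside. Tumour control 4 carries another number in its library name. The IR columns of the culture and brain tables show a group but no sample, so their numbers (IR 3, for example) are column names.

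Expected counts were rounded. Identifiers without a symbol were named through the tumour table (52139 of 55487). Genes reaching 3 CPM in 3 or more libraries were tested, the same limits as in the series text: 10888, 12924, 12962 and 10751 genes in culture, brain, tumour and miRNA. Library scaling used TMM, and edgeR 4.0.16 (R 4.3.3) gave quasi-likelihood tests with all groups of a table in 1 fit and no covariate, adjusted by Benjamini and Hochberg over all genes. Called means an adjusted p under 0.05. Levels are CPM of the scaled libraries, and the SE of a log2 fold change is its size over the square root of F. On simulated counts, 99.5%, 97.5%, 26.5% and 95% of genes changed 2-fold were called in culture IR, brain IR, tumour IR and the miRNA comparison. Library totals were 8455412 to 12785398, 8790616 to 13272583, 17392887 to 21909370 and 24972592 to 32637552 counts in these 4 tables.

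The 10 genes, the pathway and marker lists, and the rules for naming genes were chosen with earlier results of these data known. Named neighbours were, per list and comparison, up to 3 called genes with the smallest adjusted p; 1 gene of the TGF-beta response list is not reported here. Alternatives were DESeq2 1.42.0, other scalings, no filter or a 10 CPM filter, only the groups compared, the replicate number as a block (by column number, added after seeing the data, where IR columns enter), and leaving out each library. Whether replicate numbers pair libraries was checked by correlating deviations from group means. In the tumours all 4 correlations between libraries of the same number were above 0.1 (0.117 to 0.759). Only control 2 was most like the IR tumour of its own number, while controls 1, 3 and 4 were most like IR 5, 4 and 1. The correlations therefore do not show that the numbers pair the tumours. With the number as a block 0 of the 10 genes, 0 neighbouring genes and 1 gene in all were called.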

Additional observations from a re-analysis of the deposited data

Results flagged for a closer look

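In 50 tests of a group of 4 or 5 libraries for a single library far from the rest, 2 stood out, about as many as chance gives, since it marks about 1 group in 20. Lox in brain IR replicate 3 was at 179.7 CPM, and the nearest of the other 4 IR libraries was at 363 CPM. That library also had the lowest summed macrophage and microglia markers of the brain libraries, 108 CPM. Loxl3 in brain IS replicate 5 was at 17.2 CPM, and the nearest of the other 4 was at 14.8 CPM.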

How the results depend on the processing

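Of 16 called values of single genes, all 16 kept their direction under every alternative run and 11 were called under every one. Of 52 not called, 3 were called under some alternative. The alternatives reused the libraries on which the 10 genes were selected, so these counts are no support for the calls. Such counts were not made over all genes. The number of the 10 genes called for culture IR against control was 1, 2 with library totals, and 1 to 2 when each library was left out; for culture IR against IS it was 1, and 0 to 1 when each library was left out. For the miRNA comparison it was 3, 1 with library totals, and 1 to 3 when each library was left out. Library totals gave 1513 calls over all genes for culture IR against control, against 1477 in the main fit. For the miRNA comparison they gave 5851, against 6093. Neighbouring genes called for brain IR against IS were 0, 8 with DESeq2, 3 with no filter and 0 to 9 when each library was left out; for brain IR against control 20, and 9 to 26; for brain IS against control 14, and 9 to 15. For the tumours 0 became 7 with DESeq2, and for the miRNA comparison 32 became 49 with no filter. Over all genes, brain IR against IS gave 6 calls, 604 with DESeq2, 334 with no filter, 3 with library totals or a 10 CPM filter, 0 with only the groups compared, and 0 to 1139 when each library was left out (1139 without IS 2), and the tumours 0 and 124 with DESeq2. Leaving out each library lowered culture IR against IS from 683 to as few as 295, brain IR against control from 1514 to 836 (without IR 3) and brain IS against control from 835 to 465 (without control 2). With both tumours rich in muscle RNA left out, an alternative chosen after seeing the data, 0 of the 10 genes, 0 neighbouring genes and 1 gene in all were called.

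The replicate numbers were not shown to pair the libraries outside the tumours either. Correlations were -0.183 to 0.0661 between culture control and IS, -0.0899 to 0.107 between brain control and IS, and -0.181 and -0.17 in the miRNA experiment. With the replicate block 1 of the 10 genes, 20 neighbouring genes and 4003 genes in all were called in the miRNA comparison, against 3, 32 and 6093. For IS against control 4 of the 10 genes were called with the block in culture and 3 in brain, as without it, and over all genes in brain 518 against 835. The IR columns of culture and brain were mapped to a group and not to single samples, so the planned block was not run for them. A replicate block by column number, added after seeing the data, called 1, 4 and 1 of the 10 genes in culture (IR, IS, and IR against IS) and 3, 3 and 0 in brain, against 1, 4 and 1 and 4, 3 and 0; the call lost was Loxl4 in brain IR (1.28), and over all genes brain IR against IS went from 6 to 0. The cause of these differences was not tested. Lox and Loxl2 lie near the limit of 3 counts per group in cultured cells, so no fold is given there.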
